A study of Mus musculus with 26 samples.

Results

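Claudins are the membrane proteins that form the strands of tight junctions between epithelial or endothelial cells, and 10 of their genes were followed here in the mouse colon: Cldn1, Cldn2, Cldn3, Cldn4, Cldn5, Cldn7, Cldn8, Cldn15, Cldn18 and Cldn23. They were chosen by name as claudins with a known barrier or pore role in gut, vessel or stomach, with earlier results of these data known. The marker lists used below were chosen in the same way, so counts of called members or markers are descriptive. The members make up 10 of the 35975 genes counted and 10 of the 34 genes whose symbol starts with Cldn. RNA from 26 colon samples had been sequenced in a study of how activation of the liver X receptors, which sense oxysterols, alters tumour formation in the AOM-DSS model. Azoxymethane (AOM) is a carcinogen, given at 10 mg per kg, and dextran sulfate sodium (DSS) in the drinking water injures the colonic epithelium and was given in repeated cycles. GW3965, a synthetic agonist of these receptors, was mixed into the food of 1 arm, and the other arm received the standard diet.

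All samples came from male wild-type C57BL/6J mice bought from Taconic at about 10 weeks of age at the start. On each diet, 3 samples were taken at day 22, 3 at day 43 and 3 at day 70 after AOM. The 4 day 0 samples of each diet came from mice that received neither AOM nor DSS and were collected on day 22 (2 samples) or day 43 (2 samples), and their values are given below in that order. The tissue was distal colon or tumour areas. By the labels, mice of a diet sampled at days 22 and 43 shared 1 cage, its day 0 mice shared another, and each day 70 sample had a cage of its own, so diet and cage cannot be told apart at days 0, 22 and 43. No cage held both day 0 and treated mice, so cage and AOM-DSS cannot be told apart either in the comparisons with day 0. Mice of days 22 and 70 shared no cage, so cage and day cannot be told apart between those days. The study describes single mice in one place and pooled animals in another, and the p-values below measure the spread between these samples, whichever they are. The title of 1 day 0 sample, GW3965 replicate 2 collected on day 43, names the GW3965 diet while its diet label names the standard diet, and it was placed by its title.

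The 26 libraries held 18195345 to 41522204 estimated counts each, with a median of 20424702. CPM are counts relative to the library total scaled by edgeR's TMM factors, and serve to compare 1 gene between samples. TPM are shares of transcripts, corrected for length, and serve to compare genes. Some libraries stood apart. Standard diet day 43 replicate 1 had an RNA integrity number (RIN, where lower means more degraded RNA) of 2.6 and the largest total count. GW3965 day 70 replicate 1 held 20658 summed CPM of 6 skeletal muscle genes, against 11.01 and 23.5 in the other day 70 samples of that diet. The same library held 31916 summed CPM of 11 stratified squamous genes and 3323 of 8 epithelial genes, whereas replicates 2 and 3 held 12029 and 11314 of the epithelial genes. All samples of day 43 had ribosomal protein shares of 10.0% to 18.6% of counts, above the 3.96% to 8.87% of every other library but GW3965 day 22 replicate 3 (10.7%).

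A claudin strand seals the space between neighbouring cells or lets selected ions and water through it, depending on which claudins it contains. Cldn2 and Cldn15 form paracellular pores for cations, and Cldn2 also passes water. Cldn1, Cldn3, Cldn4, Cldn7 and Cldn8 are mostly counted among the sealing claudins of the gut, Cldn5 is the main claudin of endothelial cells, Cldn18 belongs to stomach and lung epithelium, and Cldn23 is found in differentiated intestinal epithelium.

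In untreated colon on the standard diet, the level of Cldn7 was 739 ± 177 TPM (mean ± SD, n = 4), followed by Cldn3 with 478 ± 98.5 TPM and Cldn2 with 73.7 ± 17.1 TPM. Below these came Cldn8 at 35.6 ± 4.30, Cldn4 at 29.5 ± 9.80, Cldn15 at 19.8 ± 6.96, Cldn5 at 19.8 ± 5.82 and Cldn23 at 19.4 ± 5.31 TPM. Cldn1 stood at 2.28 ± 0.704 TPM, and Cldn18 had no count. Neighbours from Cldn8 to Cldn23 lay within their spread of each other, whereas the steps from Cldn7 to Cldn3, from Cldn3 to Cldn2, from Cldn2 to Cldn8 and from Cldn23 to Cldn1 were larger than the SD of either gene. With GW3965 in the food, at day 0, Cldn7 stood at 792 ± 82.6, Cldn3 at 554 ± 103, Cldn2 at 88.03 ± 6.97 and Cldn8 at 45.5 ± 8.47 TPM (n = 4), in the same order. Cldn4 was then 18.8 ± 11.96 TPM, below Cldn5 (23.3 ± 6.995) and Cldn15 (22.1 ± 4.43) by less than the spread. Cldn7 had the highest TPM of the 10 members in each of the 26 samples, and Cldn3 came next in every sample but standard diet day 43 replicate 1, where Cldn4 did. In the standard arm, mean Cldn4 was above mean Cldn2 at each later day, at 52.7 ± 27.9 against 27.5 ± 5.65 TPM at day 22, 129 ± 30.96 against 7.69 ± 0.134 at day 43 and 268 ± 12.5 against 116 ± 11.9 at day 70 (n = 3 each), at day 22 by less than the spread of Cldn4.

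**Figure D1:**
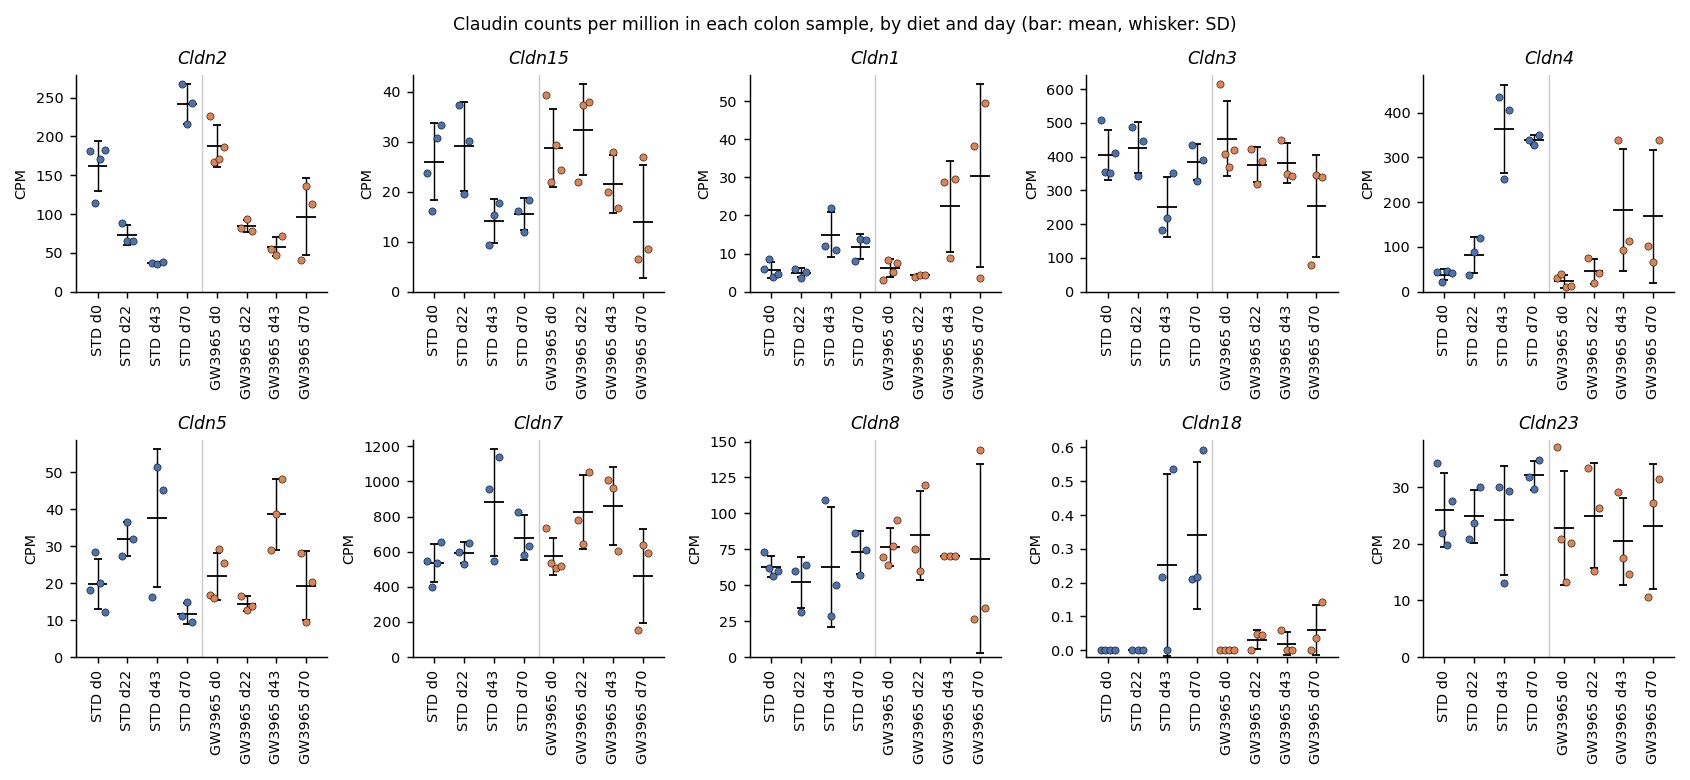
CPM of each of the 10 claudins in every sample (points), by diet and day, with the group mean (bar) and SD (whisker). Cldn4 sat at 9.7 to 45.5 CPM in the 8 day 0 samples and at 252 to 434 CPM in the standard diet samples of days 43 and 70, while Cldn2 was lowest in the standard diet samples of day 43.

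Against day 0, the claudin changes with AOM-DSS came down to a fall of Cldn2 and a rise of Cldn4 and Cldn1. Cldn5 was called higher in 1 comparison with day 0 and lower between days 22 and 70 on the standard diet, and Cldn15 lower between days 22 and 70 on the GW3965 diet. Cldn18 was too low to be tested, so 9 of the 10 members were tested among 17063 genes, and a gene is called when the FDR (the Benjamini-Hochberg adjusted p of edgeR's quasi-likelihood test over all tested genes) is under 0.05. On the standard diet 1 of 9 members was called at day 22 (Cldn2, lower), where 9.55% of all tested genes were called and 1.99% were called lower. At day 43, 4 of 9 were called against 55.1% of all genes: Cldn4, Cldn1 and Cldn5 were higher, as were 30.8% of all genes, and Cldn2 was lower, as were 24.2%. At day 70, 1 of 9 was called against 30.3% of all genes (Cldn4, higher, against 16.7%). Between days 22 and 70, 3 of 9 were called against 31.1%, with Cldn2 and Cldn4 higher (background 15.1%) and Cldn5 lower (background 16%). In the GW3965 arm, Cldn2 alone of the 9 was called at day 22 (lower), against 20.7% of genes in either direction and 7.05% lower. At day 43, 3 of 9 were called against 45.3%, with Cldn4 and Cldn1 higher (background 26%) and Cldn2 lower (background 19.3%). At day 70, again 3 of 9 were called against 21.5%, Cldn4 and Cldn1 higher (background 14.7%) and Cldn2 lower (background 6.82%). From day 22 to day 70, 3 of 9 were called against 25%, Cldn1 and Cldn4 higher (background 14.4%) and Cldn15 lower (background 10.6%).

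So many genes moved with time that the number of claudins called was close to or below the share of all genes on the standard diet, and nothing particular to the family is read from it. The median log2 fold change of the 9 members was 0.07 against 0.01 for all tested genes at day 22 on the standard diet, -0.01 against 0.14 at day 43 and 0.31 against 0.04 at day 70. On the GW3965 diet the same pairs were 0.13 against 0.03, -0.12 against 0.07 and -0.17 against 0.11. The day comparisons of a diet share their day 0 or day 22 samples and are not independent of each other. The counts rested partly on single libraries. The 4 members at day 43 on the standard diet became 2 without any 1 of 3 day 0 samples (collected day 22 replicate 1, or day 43 replicates 1 or 2). Under GW3965, leaving out day 70 replicate 2 gave 6 members against day 0 and 5 against day 22, in place of 3 and 3, and leaving out day 70 replicate 3 or day 22 replicate 2 or 3 left 1 member in the comparison of days 70 and 22. With the ribosomal protein share as a further term, which differs between days, 0 members were called by edgeR at day 43 on either diet, and of all 17063 genes 0 (standard) and 160 (GW3965) were called. In that fit 3 and 3 of the 9 members had an unadjusted p under 0.05, and without the term DESeq2 called 5 and 3.

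**Figure D2:**
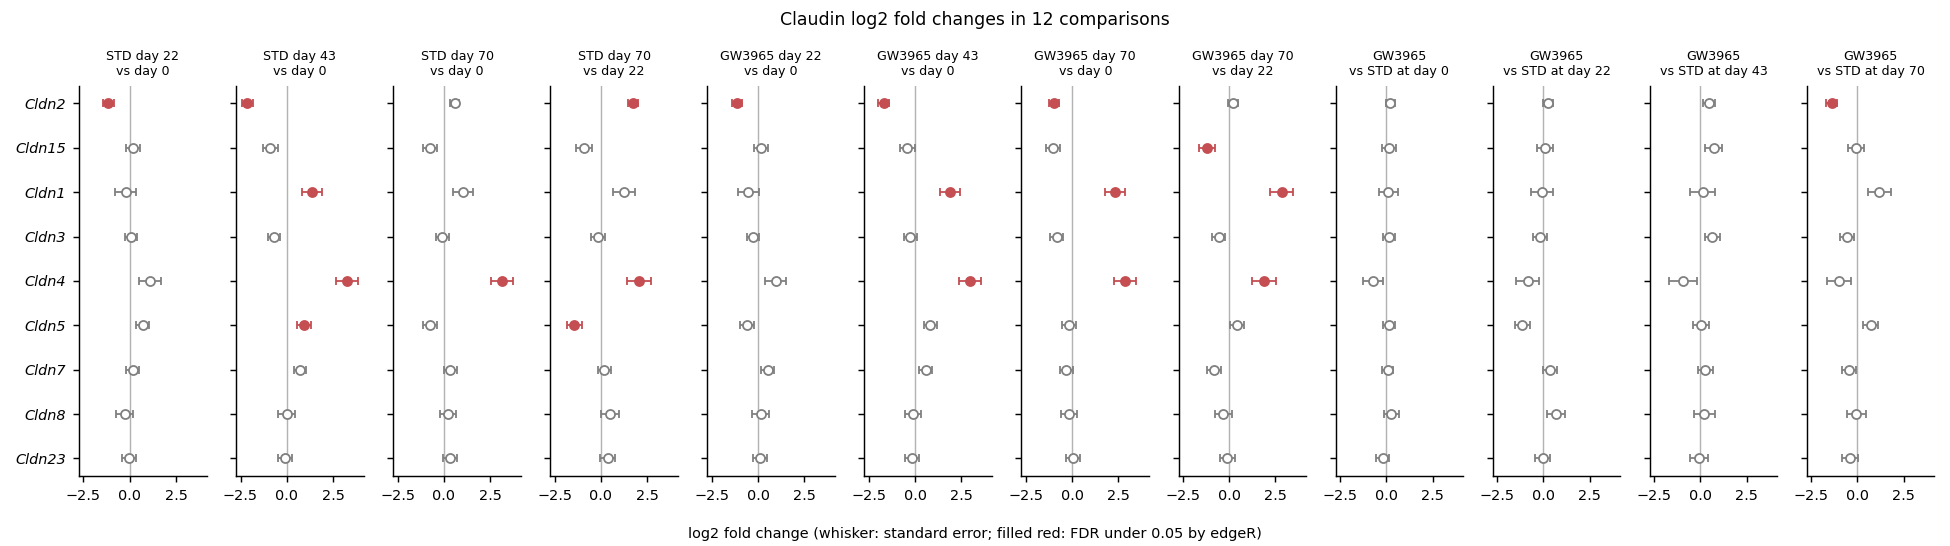
Log2 fold change of each tested claudin (x axis, whisker SE) in 12 comparisons, with red filled points for FDR under 0.05 and open grey points otherwise. Cldn4 lay right of 0 in all 6 comparisons of a later day with day 0, and Cldn2 lay left of 0 in all of them but standard diet day 70.

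The promoters of Cldn2, which fell at days 22 and 43 on both diets, and of Cldn4 and Cldn1, which rose at day 43 on both, are shown so that genes moving in opposite directions can be read side by side. Each runs 5' to 3' from 250 bases before to 50 bases after the RefSeq start (build GRCm38.p6; Cldn2 chrX:139800558-139800857, plus strand; Cldn4 chr5:134946885-134947184, minus strand; Cldn1 chr16:26371790-26372089, minus strand). Capitals mark matches to 4 motifs, searched on both strands. These were the GC box GGGCGG, the TATA box TATAAA, a CDX type motif TTTATG and a TCF type motif in 4 spellings, namely CTTTGAA, then CTTTGAT, then CTTTGTA, then CTTTGTT.
Cldn2: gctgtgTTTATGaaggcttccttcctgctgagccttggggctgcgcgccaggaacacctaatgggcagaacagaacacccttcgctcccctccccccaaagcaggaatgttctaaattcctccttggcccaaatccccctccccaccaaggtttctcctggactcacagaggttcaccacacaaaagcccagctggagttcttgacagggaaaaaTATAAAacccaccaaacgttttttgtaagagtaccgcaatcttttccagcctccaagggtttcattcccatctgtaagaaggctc
Cldn4: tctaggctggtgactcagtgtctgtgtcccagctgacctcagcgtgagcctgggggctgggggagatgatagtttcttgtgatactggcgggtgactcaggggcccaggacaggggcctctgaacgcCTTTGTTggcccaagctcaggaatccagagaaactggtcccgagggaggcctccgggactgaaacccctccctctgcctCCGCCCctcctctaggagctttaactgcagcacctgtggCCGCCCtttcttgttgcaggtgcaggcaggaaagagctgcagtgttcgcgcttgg
Cldn1: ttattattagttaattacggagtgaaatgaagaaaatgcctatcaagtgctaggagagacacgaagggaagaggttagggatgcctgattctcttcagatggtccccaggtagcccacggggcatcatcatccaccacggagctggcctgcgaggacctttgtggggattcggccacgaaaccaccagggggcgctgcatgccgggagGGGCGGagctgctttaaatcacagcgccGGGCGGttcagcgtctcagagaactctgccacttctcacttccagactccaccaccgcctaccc
The Cldn2 window holds 1 TATA box, starting at base -35 from the start site, and 1 CDX type match at -244, and no GC box. In the Cldn4 window stand 2 GC boxes on the reverse strand (from -44 and -5) and 1 TCF type match, CTTTGTT, at -123. Cldn1 has 2 GC boxes, at -42 and -14. RefSeq windows were found for 8 of the 10 members, all but Cldn8 and Cldn23. Cldn7 and Cldn18 have 2 windows each, and a member is counted when either matches, while the shares of all promoters are per window. A GC box was present in 6 of these 8 (in 1 of the 2 windows of Cldn7) and in 35.7% of 32851 promoters of the same length, a TATA box in 1 (13.6% of all), a CDX type match in 1 (11.9%) and a TCF type match in 2 (16.9%). These matches describe the letters only.

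The genes themselves lie on several chromosomes of GRCm38: Cldn2 at chrX:139800828-139811386, Cldn15 at chr5:136966616-136975858, Cldn4 at chr5:134945119-134946934 and Cldn3 at chr5:134986214-134987472, with the last 3 on the same chromosome and Cldn4 and Cldn3 close neighbours on opposite strands. Cldn1 (chr16:26356642-26371841), Cldn5 (chr16:18776847-18778262) and Cldn8 (chr16:88560828-88563183) share chromosome 16. Cldn7 lies at chr11:69964779-69967885, Cldn18 at chr9:99689461-99717267 and Cldn23 at chr8:35824712-35826559. Whether the counting used strand is not given in the sources used here. An annotated gene on the opposite strand overlaps the end of Cldn3, so reads of Cldn3 may not have been separated there.

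Cldn2, the pore for cations and water, fell below its day 0 level at days 22 and 43 on both diets. Among standard diet samples, its CPM was 181, 114, 171 and 183 in the 4 day 0 samples, 88.6, 64.9 and 65.7 at day 22, 36.96, 35.4 and 38.3 at day 43 and 267, 216 and 244 at day 70. With GW3965 in the food, the values were 226, 166, 171 and 186 in the 4 day 0 samples, 82.1, 93.4 and 78.1 at day 22, 54.6, 47.6 and 71.4 at day 43 and 40.6, 136 and 113 at day 70. Every sample of days 22 and 43 lay below every day 0 sample of its diet, and at day 70 the standard diet samples were all above day 0 while the GW3965 samples were spread from 40.6 to 136 CPM, below day 0. At day 22 Cldn2 was lower in 3 of 3 samples on the standard diet (log2 fold change -1.15, SE 0.27, edgeR FDR = 0.00993) and in 3 of 3 on the GW3965 diet (log2 fold change -1.15, SE 0.27, edgeR FDR = 0.00580). The call on the standard diet was lost without day 22 replicate 2 (FDR = 0.0702) or replicate 3 (FDR = 0.0575). At day 43 the difference from day 0 was larger, again in 3 of 3 samples on the standard diet (log2 fold change -2.14, SE 0.29, edgeR FDR = 5.54e-06) and in 3 of 3 on the GW3965 diet (log2 fold change -1.70, SE 0.28, edgeR FDR = 9.64e-05). With the ribosomal share as a further term the day 43 folds were -1.56 (FDR = 0.389) and -1.32 (FDR = 0.157). In a bulk sample, fewer cells of a type and less RNA per cell cannot be told apart.

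By day 70 Cldn2 on the standard diet was back at or above its day 0 level. It was higher than at day 22 in 3 of 3 samples (log2 fold change 1.73, SE 0.29, edgeR FDR = 0.000594), and its 3 values lay above all 4 of day 0 without passing the threshold (log2 fold change 0.58, SE 0.26, edgeR FDR = 0.103), which it did pass without both libraries that stood apart. In the GW3965 arm, it was below day 0 in 3 of 3 samples (log2 fold change -0.96, SE 0.27, edgeR FDR = 0.0154), and without replicate 1, the library rich in muscle and keratin counts, the fold was -0.60 (FDR = 0.0556). Without both libraries that stood apart it was -0.59 and called (FDR = 0.0419). A fit of only the compared groups ended that call at a fold of -1.05 (FDR = 0.0868). The difference from day 22 was within the spread on this diet (log2 fold change 0.19, SE 0.28, edgeR FDR = 0.653). Across all groups, the level of differentiated colonocyte markers (8 of 8 detected, none at 0) took another course. Among these markers Krt20 had a median of 388 CPM and a highest value of 989, while Car4 reached 1236 CPM at day 0. The summed CPM of all 8 on the standard diet was 4805, 2891, 2221 and 4239 in the 4 day 0 samples, 2707, 1238 and 1370.2 at day 22, 409.5, 614 and 764 at day 43 and 1349.5, 464 and 494 at day 70. On the GW3965 diet it was 5069.6, 3533, 2144 and 2936 in the 4 day 0 samples, 2014, 1293 and 2008 at day 22, 1009.5, 1057 and 872 at day 43 and 209.9, 1230.5 and 557 at day 70. At day 43, 6 of the 8 were called lower on the standard diet and 4 on the GW3965 diet, and at day 70 5 and 5. Of all 17063 genes, 4133 and 3297 were called lower at day 43 and 2331 and 1164 at day 70, and with the ribosomal term 0 and 7 at day 43. Both Cldn2 and these markers were low at day 43, but at day 70 the standard diet samples had high Cldn2 and few colonocyte counts, and the part of cell composition in either was not tested.

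Cldn2 was also the 1 member called between diets. At day 70 all 3 GW3965 samples were below all 3 standard diet samples (log2 fold change -1.39, SE 0.29, edgeR FDR = 0.0252), with 1 of 9 members called against 1.83% of all genes in either direction and 0.0820% lower. The diet comparisons carry the ribosomal protein share as a covariate. The lowest Cldn2 of day 70, 40.6 CPM, was in GW3965 replicate 1 with its low epithelial sum, and without that library the fold was -1.03 (FDR = 0.0259). The 8 epithelial markers had a median log2 fold change of -0.61 against 0.02 for all genes in this comparison with 0 called. Medians of other marker lists with 0 called included -1.15 (stem cell and Wnt), 0.71 (differentiated colonocyte), 1.16 (stratified squamous) and 3.86 (skeletal muscle). Of 6 leukocyte genes, 2 were called higher at a median of 1.69, beside 298 of all 17063 genes. The parts of epithelial content and of other cell types were not tested. Leaving out any 1 standard diet day 70 sample ended the Cldn2 call, as the FDR was 0.157 without replicate 1, 0.0512 without replicate 2 and 0.109 without replicate 3, with folds of -1.34, -1.44 and -1.36. In a fit of only the day 70 samples the fold was -1.30 and the FDR 0.900. Leaving out GW3965 day 70 replicate 2 added Cldn1 to the call, making 2. The question whether diet acted otherwise at day 70 than at day 0 is put by the difference of the diet effects, which was -1.62 (SE 0.38) with an edgeR FDR of 0.148, so the diet effect is not shown to differ between these days. Without GW3965 day 70 replicate 3 this difference was called, and DESeq2 called it too. At day 43 the diets stood the other way round, with all 3 GW3965 samples above all 3 standard samples and no call (log2 fold change 0.47, SE 0.32, edgeR FDR = 0.695).

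For the other members diet made no difference that passed the threshold. edgeR called 0 of 9 members at day 0, at day 22 and at day 43, against 0.0293%, 0.135% and 0.0293% of all genes, while 0, 1 and 0 members had an unadjusted p under 0.05 and DESeq2 called 0, 0 and 0. The differences of the diet effect from day 0 gave 0 called members at days 22, 43 and 70, against 0.0234%, 0% and 0% of genes, with 1, 0 and 1 members at an unadjusted p under 0.05, and DESeq2 called 0, 0 and 1 (Cldn2). In the joint test of diet and its interaction with time, edgeR called 0 of 9 against 0.176% of genes, with Cldn2 at an FDR of 0.135, 1 member at an unadjusted p under 0.05 and 1 called by DESeq2 (Cldn2). The member with an unadjusted p under 0.05 at day 22 was Cldn5, described with the endothelial markers.

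Cldn15, the second pore claudin, was among the less abundant members and was called in 1 comparison. Without the agonist, its CPM was 23.7, 16.2, 30.7 and 33.4 in the 4 day 0 samples, 37.4, 19.6 and 30.2 at day 22, 9.26, 15.3 and 17.8 at day 43 and 16.2, 11.97 and 18.4 at day 70. Under GW3965, it was 39.4, 21.95, 29.3 and 24.3 in the 4 day 0 samples, 21.9, 37.4 and 37.9 at day 22, 20.03, 27.9 and 16.8 at day 43 and 6.45, 27.04 and 8.58 at day 70. Day 0 and day 22 values overlapped throughout, and 2 of 3 samples at day 43 and at day 70 lay under the lowest day 0 sample of the same diet. Against day 0 edgeR called it in no comparison of the reported fit, with FDR = 0.0647 at day 43 and 0.164 at day 70 on the standard diet (edgeR) and 0.0690 at day 70 on the GW3965 diet. Other settings did call it lower: DESeq2, library totals or leaving out day 0 replicate 2 collected on day 22 at day 43 on the standard diet, only the compared groups at day 70 on that diet, and DESeq2 or leaving out day 70 replicate 2 at day 70 on the GW3965 diet. Between days 22 and 70 all 3 later samples on the standard diet lay below the earlier 3 without a call (log2 fold change -0.90, SE 0.42, edgeR FDR = 0.104). In the same comparison on the GW3965 diet it was called lower, with 2 of 3 samples under all of day 22 (log2 fold change -1.21, SE 0.42, edgeR FDR = 0.0410). That call was lost without day 22 replicate 2 (FDR = 0.106) or replicate 3 (0.144), and without day 70 replicate 1 (0.189) or replicate 3 (0.168). It was lost too, with the fold and FDR in brackets, under library totals in place of TMM (-1.07, 0.0686), the ribosomal term (-1.05, 0.239), a replicate block (-1.22, 0.0524), only the compared groups (-1.21, 0.179) and without both libraries that stood apart (-0.86, 0.136).

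Together the pore claudins Cldn2 and Cldn15 supplied 14.6% ± 1.495 (SD, n = 4) of the summed counts of the 10 members at day 0 on the standard diet. It then went to 7.75% ± 1.32, 3.19% ± 0.961 and 14.4% ± 0.397 at days 22, 43 and 70 (n = 3 each). With GW3965 in the food, the shares were 15.6% ± 0.898 (n = 4), 8.11% ± 2.39, 5.03% ± 1.56 and 9.79% ± 1.86 (n = 3 each). The day 70 samples of the diets did not overlap in this share (14.05% to 14.8% against 7.97% to 11.7%), which was not tested. In summed TPM, where length no longer weighs, the pore share was 6.56% ± 0.887, 3.52% ± 0.674, 1.19% ± 0.584 and 6.70% ± 0.258 on the standard diet and 7.07% ± 0.370, 3.40% ± 1.10, 2.04% ± 0.686 and 4.64% ± 0.858 on the GW3965 diet. Both scales gave the lowest share at day 43 on each diet. Cldn4 alone supplied 2.95% ± 0.673 of member counts at day 0 on the standard diet and 21.7% ± 2.43 at day 43, and in TPM 2.05% ± 0.506 and 11.03% ± 1.54. Its count share at these days on the GW3965 diet was 1.67% ± 1.02 and 10.4% ± 5.67, and its TPM share 1.18% ± 0.736 and 6.23% ± 3.63.

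**Figure D3:**
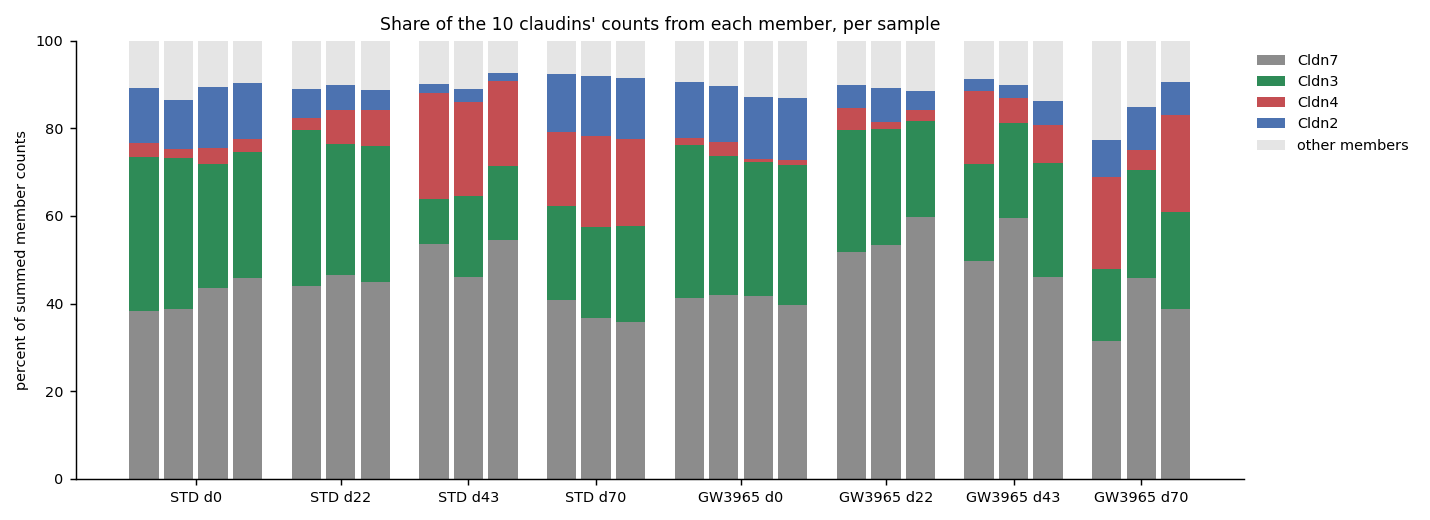
Percent of the summed counts of the 10 claudins that came from Cldn7, Cldn3, Cldn4, Cldn2 and the other members together, with 1 bar per sample grouped by diet and day. The Cldn2 segment narrows at days 22 and 43 on both diets and the Cldn4 segment widens at days 43 and 70.

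Cldn4, a sealing claudin of colonic surface epithelium, rose more against day 0 than any other tested member. In the standard arm, its CPM was 44.5, 21.01, 45.5 and 42.7 in the 4 day 0 samples, 37.99, 88.6 and 119 at day 22, 434, 252 and 406 at day 43 and 339, 328 and 350.3 at day 70. In the GW3965 arm, it was 31.2, 39.5, 9.71 and 13.5 in the 4 day 0 samples, 75.4, 19.9 and 41.5 at day 22, 339.5, 93.1 and 114 at day 43 and 102, 65.5 and 339 at day 70. All samples of days 43 and 70 lay above all day 0 samples of their diet, and the standard diet samples of these days were the closer group, while GW3965 samples ranged from 65.5 to 339.5 CPM. At day 43 it was higher in 3 of 3 samples on the standard diet (log2 fold change 3.24, SE 0.60, edgeR FDR = 0.000140) and in 3 of 3 on the GW3965 diet (log2 fold change 2.95, SE 0.60, edgeR FDR = 0.000531). Under the alternative settings these folds ranged from 2.81 to 3.44 and from 2.13 to 3.31. At day 70 it was again higher in 3 of 3 samples on the standard diet (log2 fold change 3.14, SE 0.60, edgeR FDR = 0.000720) and in 3 of 3 on the GW3965 diet (log2 fold change 2.84, SE 0.59, edgeR FDR = 0.00192), and these day 70 calls held under every alternative setting run. Over those settings, single samples left out among them, the folds ranged from 2.94 to 3.22 and from 1.82 to 3.21. At day 22, 2 of 3 samples of each diet were above all day 0 samples, with FDR = 0.264 and 0.242 by edgeR. The day 43 calls were lost with the ribosomal share as a further term, at folds of 3.07 (FDR = 0.615) and 2.84 (FDR = 0.198).

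From day 22 to day 70 Cldn4 was higher in 3 of 3 samples on the standard diet (log2 fold change 2.05, SE 0.64, edgeR FDR = 0.0195), and the FDR was 0.0857 without day 22 replicate 1 and 0.0575 without replicate 2. On the GW3965 diet 2 of 3 day 70 samples lay above all of day 22 (log2 fold change 1.89, SE 0.64, edgeR FDR = 0.0350). There the call was lost without day 70 replicate 3 (0.90, FDR = 0.309), day 22 replicate 2 (FDR = 0.130) or day 22 replicate 3 (FDR = 0.127). The ribosomal term (fold and FDR 1.93, 0.137) and a fit of only the compared groups (1.88, 0.126) ended it as well, at folds as large. Mean Cldn4 was lower on the GW3965 diet than on the standard diet at each of the 4 times, for example 182 ± 137 against 364 ± 98.3 CPM at day 43 (n = 3 each) and 169 ± 148 against 339 ± 11.3 at day 70. None of these differences passed, with edgeR FDR = 1, 0.718, 0.767 and 0.419 at days 0, 22, 43 and 70. In TPM, Cldn4 went from 29.5 ± 9.80 at day 0 to 129 ± 30.96 at day 43 and 268 ± 12.5 at day 70 on the standard diet.

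Cldn1, a sealing claudin that is abundant in epidermis, was the least abundant tested member at day 0. On the standard diet its CPM was 5.93, 8.69, 3.91 and 4.66 in the 4 day 0 samples, 6.07, 3.72 and 5.22 at day 22, 12.1, 21.8 and 11.04 at day 43 and 8.10, 13.8 and 13.6 at day 70. Under GW3965, it was 3.14, 8.36, 5.30 and 7.61 in the 4 day 0 samples, 3.85, 4.49 and 4.44 at day 22, 28.9, 8.73 and 29.5 at day 43 and 38.2, 3.499 and 49.6 at day 70. In CPM, days 0 and 22 overlapped, all day 43 samples exceeded their day 0 samples, and at day 70 the GW3965 samples split into replicates 1 and 3, the highest of all 26, and replicate 2, among the lowest. In TPM day 43 overlapped day 0 on both diets, with 2.31, 4.42 and 1.88 against a day 0 mean of 2.28 ± 0.704 (n = 4) on the standard diet and 6.18, 1.46 and 8.60 against 2.60 ± 1.13 (n = 4) on the GW3965 diet. By the test on counts, at day 43 it was higher in 3 of 3 samples on the GW3965 diet (log2 fold change 1.87, SE 0.55, edgeR FDR = 0.00909) and in 3 of 3 on the standard diet (log2 fold change 1.37, SE 0.55, edgeR FDR = 0.0401). The standard diet call was lost without day 43 replicate 2 (FDR = 0.174), without day 0 replicate 1 collected on day 22 (0.0685), and without day 0 replicate 1 or 2 collected on day 43 (0.0912 and 0.0817). It was also lost, with fold and FDR in brackets, under library totals (0.99, 0.145), no low-count filter (1.32, 0.0571), a RIN term (1.86, 0.0552) and a replicate block (1.29, 0.0654). The ribosomal term ended the call on both diets at larger folds (2.71, 0.554 on the standard and 2.72, 0.135 on the GW3965 diet). At day 70 Cldn1 was called on the GW3965 diet against day 0, with 2 of 3 samples above all of day 0 (log2 fold change 2.32, SE 0.56, edgeR FDR = 0.00527), and against day 22 (log2 fold change 2.83, SE 0.63, edgeR FDR = 0.00396), again with 2 of 3. In a fit of only the compared groups both day 70 calls were lost at folds as large (2.24, 0.0803 against day 0 and 2.84, 0.0791 against day 22), and against day 22 that fit called 0 of all genes. The ribosomal term ended the call against day 22 (2.37, 0.0622). Among standard diet samples, it was not called at day 70 (log2 fold change 1.03, SE 0.55, edgeR FDR = 0.165), except in a fit of only the compared groups.

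Markers of stratified squamous epithelium, the lining of the anal canal and skin, were high in most samples with high Cldn1. By mean CPM over all samples Krt13 was the most abundant of the list, with a median of 3.17 and a highest value of 4968 CPM. All 11 genes were detected, and none was at 0 in all samples. Their summed CPM on the standard diet was 9.09, 11.1, 8.77 and 10.3 in the 4 day 0 samples, 11.6, 23.1 and 28.9 at day 22, 524, 1751 and 809.9 at day 43 and 3527, 5700.3 and 5001 at day 70. With GW3965 in the food, it was 8.99, 10.6, 8.34 and 9.59 in the 4 day 0 samples, 10.6, 9.42 and 13.7 at day 22, 2381, 186 and 4274 at day 43 and 31916, 7.96 and 14041 at day 70. The GW3965 day 70 sample with low Cldn1, replicate 2, had a squamous sum at the level of day 0, and at day 43 replicate 2 of that diet had the lowest sum and the lowest Cldn1 of its group. Of the 11 genes, 10 were called higher at day 43 on the standard diet and 10 on the GW3965 diet, and 11 on each diet at day 70, beside 30.8% and 26% of all genes at day 43 and 16.7% and 14.7% at day 70. Without the agonist, the squamous sums at day 70 exceeded those at day 43, whereas mean Cldn1 was 11.8 ± 3.24 and 15.001 ± 5.95 CPM. The 11 samples with squamous sums of 186 or more had Cldn4 at 93.1 to 434 CPM and the other 15 had 9.71 to 119 CPM. Cldn4 was 102 CPM in GW3965 day 70 replicate 1, which had the largest squamous sum, below the 119 CPM of standard diet day 22 replicate 3. In GW3965 day 70 replicate 2, with a squamous sum of 7.96, Cldn4 was 65.5 CPM, above every day 0 sample. The part of squamous tissue in the rise of either gene was not tested further.

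**Figure D4:**
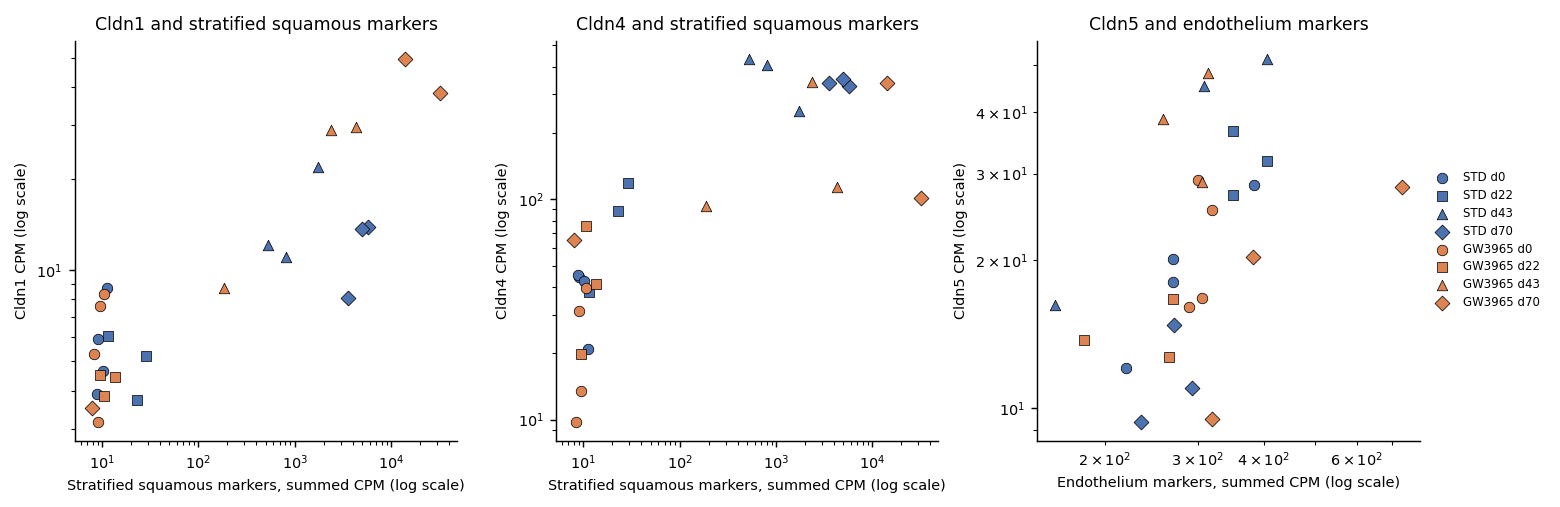
CPM of Cldn1 and Cldn4 against summed CPM of 11 stratified squamous markers, and of Cldn5 against 10 endothelial markers, all on log scales, with 1 point per sample coloured by diet and shaped by day. The highest Cldn1 values, 38.2 and 49.6 CPM, belong to the GW3965 day 70 samples with the largest squamous sums.

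Cldn3 and Cldn7, the most abundant sealing members, were called by edgeR in no comparison of the reported fit. Cldn3 on the standard diet measured 508, 353, 351 and 411 in the 4 day 0 samples, 489, 342 and 448 at day 22, 181, 218 and 352 at day 43 and 434, 326 and 390.3 at day 70 CPM. In the GW3965 arm, Cldn3 was 616, 407, 368 and 421 in the 4 day 0 samples, 421, 319.6 and 389 at day 22, 449.7, 349.7 and 343 at day 43 and 79.1, 345 and 339 at day 70 CPM. It was lowest in GW3965 day 70 replicate 1 and in standard diet day 43 replicates 1 and 2, and in the reported fit it was not called (smallest edgeR FDR = 0.0872 at day 70 on the GW3965 diet, then 0.0888 at day 43 on the standard diet). All 3 GW3965 samples of day 70 lay below all of day 0, and Cldn3 was called lower there by DESeq2 and without replicate 2, and at day 43 on the standard diet with library totals or without replicate 3. Cldn7, a claudin of lateral as well as tight junctional membranes, had 549, 396, 538 and 658 in the 4 day 0 samples, 601, 531 and 650.2 at day 22, 959, 545 and 1138 at day 43 and 824, 581 and 630.4 at day 70 CPM on the standard diet. On the GW3965 diet Cldn7 had 732, 538, 505 and 519.8 in the 4 day 0 samples, 782, 642 and 1054 at day 22, 1010.1, 963 and 602 at day 43 and 152, 639 and 591 at day 70 CPM. Its lowest value again came from GW3965 day 70 replicate 1, and its groups overlapped in all comparisons but that of days 22 and 70 on the GW3965 diet, where all 3 day 70 samples were below day 22 without a call (log2 fold change -0.84, SE 0.37, edgeR FDR = 0.0998). Cldn7 was called in that comparison without GW3965 day 70 replicate 2, and at day 43 on the standard diet without day 43 replicate 2. In TPM Cldn3 stood at 478 ± 98.5 at day 0 and 137 ± 37.4 at day 43 on the standard diet, a wider gap than in CPM. The median tested gene also had a lower TPM at day 43 (log2 ratio of group means -0.66 in TPM and 0.12 in CPM), and on the GW3965 diet these ratios were -0.59 and 0.06, so TPM falls at day 43 are read against that shift.

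While Cldn7 as a whole was not called, the split over its 5 annotated protein-coding transcripts changed. Cldn7-201 carried 84.1%, 78.3%, 81.6% and 77.6% of the gene's counts in the day 0 samples of the standard diet and 23.4%, 60.9% and 46.4% at day 43. Cldn7-203 carried 61.6%, 12.5% and 28.6% in the day 43 samples of the standard diet, whose RIN was 2.6, 8.4 and 7.8. At day 43 on the GW3965 diet the share was 9.07%, 16.9% and 9.11%, at RIN 8, 6.8 and 9.3, and at day 22 on that diet it was 3.54%, 11.3% and 12.9%, at RIN 9.6, 9.3 and 9.1. In the other samples it was at most 5.43%. The highest share came from the library with the lowest RIN, and the share was above 9% in all 6 samples of day 43 and in 2 of day 22. The parts of RNA quality and of the assignment of reads among overlapping transcripts were not tested, and the gene's summed count does not depend on that assignment within the gene.

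**Figure D5:**
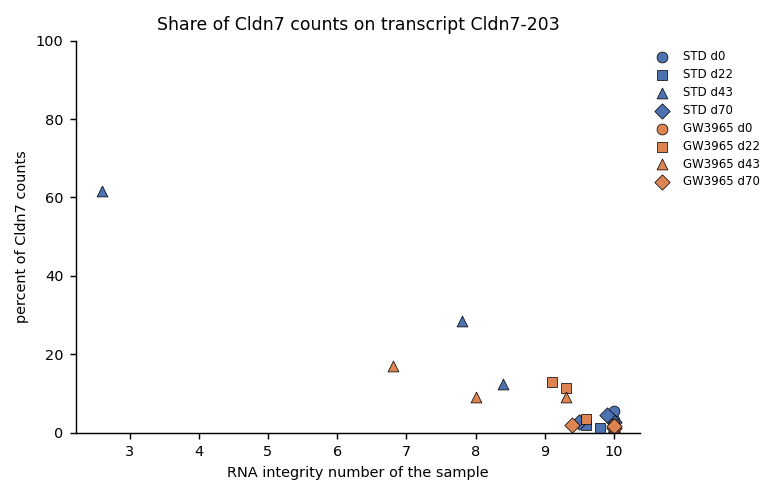
Percent of Cldn7 counts assigned to transcript Cldn7-203 (y axis) against the RNA integrity number (x axis), with 1 point per sample coloured by diet and shaped by day. The sample at RIN 2.6 has 61.6%, and the samples of days 0 and 70 have 5.43% or less.

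Cldn5, the endothelial claudin, had its highest values at day 43. In the standard arm, its CPM was 18.04, 28.5, 20.1 and 12.04 in the 4 day 0 samples, 27.2, 36.6 and 31.9 at day 22, 16.2, 51.3 and 45.2 at day 43 and 10.99, 14.8 and 9.34 at day 70. Under GW3965, it was 16.8, 16.02, 29.1 and 25.3 in the 4 day 0 samples, 16.6, 12.7 and 13.8 at day 22, 28.8, 38.7 and 48.2 at day 43 and 28.2, 9.504 and 20.3 at day 70. Day 43 held the highest values on each diet in CPM, although standard diet day 43 replicate 1 stayed inside the day 0 range. Cldn5 was called higher at day 43 on the standard diet, with 2 of 3 samples above all of day 0 (log2 fold change 0.93, SE 0.36, edgeR FDR = 0.0336), and lower at day 70 than at day 22 in 3 of 3 samples (log2 fold change -1.45, SE 0.40, edgeR FDR = 0.00983), a call that held under every alternative setting run. In TPM the day 43 mean was 18.1 ± 9.40 against 19.8 ± 5.82 at day 0, a difference within the spread. The median tested gene had a log2 ratio of -0.66 in TPM there. The day 43 call was lost without day 43 replicate 2 (FDR = 0.182) or replicate 3 (0.137), and without day 0 replicate 1 collected on day 22 (0.0697) or replicates 1 and 2 collected on day 43, each alone (0.0510 and 0.0941). It was lost too, with fold and FDR in brackets, under library totals (0.54, 0.231), no low-count filter (0.87, 0.0603), the ribosomal term (0.99, 0.862), a replicate block (0.88, 0.0653) and only the compared groups (0.94, 0.110). With GW3965 in the food, day 43 missed the threshold (log2 fold change 0.82, SE 0.36, edgeR FDR = 0.0678), again with 2 of 3 samples above all of day 0. It was called there with a RIN term, with only the compared groups, without both libraries that stood apart, and without day 0 replicate 1 collected on day 43. The diet effect at day 43 is not shown to differ from that at day 0 (difference -0.13, SE 0.57, edgeR FDR = 1). At day 22 all 3 GW3965 samples lay below all 3 standard diet samples without passing the threshold (log2 fold change -1.15, SE 0.41, edgeR FDR = 0.304).

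Endothelial markers were read beside Cldn5. All 10 were detected, Pecam1 was the most abundant, and none was at 0. Their summed CPM on the standard diet was 269, 383, 269 and 219 in the 4 day 0 samples, 350.1, 350.5 and 405 at day 22, 161, 406 and 308 at day 43 and 292, 270.4 and 234 at day 70. In the GW3965 arm, it was 306, 289, 300.1 and 319.5 in the 4 day 0 samples, 269, 265 and 183 at day 22, 306, 258 and 313 at day 43 and 731, 319 and 382 at day 70. At day 22 these sums, too, were lower in all 3 GW3965 samples than in all 3 standard diet samples, as Cldn5 was. At day 43 on the standard diet 1 of the 10 was called higher and 3 were called lower, where 30.8% and 24.2% of all genes were, while Cldn5 was called higher. Between days 22 and 70 2 were lower, against 16% of all genes. The largest endothelial sum, in GW3965 day 70 replicate 1, went with a Cldn5 of 28.2 CPM. The part of vessel content in the Cldn5 differences was not tested.

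Cldn8, Cldn23 and Cldn18 completed the set. Cldn8, a sealing claudin of the distal colon and kidney tubule, ranged from 26.8 to 144 CPM with a median of 66.97, and both its lowest and its highest value came from GW3965 day 70 samples (replicates 1 and 2). Its group means lay between 51.9 ± 18.02 (standard diet day 22) and 84.8 ± 31.04 CPM (GW3965 day 22, n = 3 each), and no comparison of the reported fit passed the threshold. Cldn23 ranged from 10.6 to 37.1 CPM, its group means from 20.5 ± 7.68 to 32.1 ± 2.58 CPM (n = 3 each), and it was called in none of the comparisons either. Without GW3965 day 70 replicate 2, Cldn8 was called lower against day 0 and day 22 on that diet. Cldn18 had 0 counts in all 8 day 0 samples and in the standard diet samples of day 22, which allows up to 0.144 to 0.165 CPM in a day 0 library, the level of 3 counts. This floor covers counting error only. On the standard diet Cldn18 had 7, 0 and 10 counts at day 43 and 4, 5 and 14 at day 70, at most 0.592 CPM, and in the GW3965 samples from day 22 on it had 0 to 4 counts. Without the low-count filter edgeR called it higher on the standard diet at day 43, at day 70 and between days 22 and 70. Stomach and lung markers were scarce too, with sums over 10 genes of 0.149 to 0.681 CPM at day 0 and 1.94 to 6.87 at days 43 and 70 on the standard diet. The 3 that could be tested were called higher there at both days and 1 of them on the GW3965 diet, with Atp4a as the most abundant and Gkn2 at 0 in all samples. Of all genes, 30.8% and 16.7% were called higher at days 43 and 70 on the standard diet, and 26% and 14.7% on the GW3965 diet.

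The other 24 genes with a Cldn symbol were mostly silent: 9 had no count in any sample, 17 (these 9 among them) never reached 1 CPM, and 8 were tested. Cldn12 was the most abundant of them, with up to 55.7 TPM, and lay at 31.3 to 145 CPM. It was called lower at day 70 on the GW3965 diet (log2 fold change -0.98, edgeR FDR = 0.0215), as was Cldn14, a sealing claudin (log2 fold change -1.69, FDR = 0.00501). Cldn14 CPM in these samples was 1.54, 4.75 and 1.70, against 11.7, 9.18, 7.15 and 6.56 at day 0, without overlap. Cldn17 had 0 counts at day 0 and day 22 on the GW3965 diet and was present at 0.646, 0.271 and 2.55 CPM at day 43 and 8.34, 0.0737 and 2.61 at day 70. Among standard diet samples, it was 0, 0.189, 0 and 0.0495 CPM at day 0 and 0 in each sample of day 22. It was then 0, 0.0535 and 1.34 CPM at day 43 and 0.368, 2.18 and 2.66 at day 70. Its highest value, like that of the squamous markers, belonged to GW3965 day 70 replicate 1. Of the 8 tested, 2 were called higher and 0 lower at day 43 on the standard diet and 3 and 0 on the GW3965 diet, and at day 70 2 higher and 1 lower, and 1 and 2. Of all genes, 30.8% and 26% were called higher at day 43 and 16.7% and 14.7% at day 70. Called lower were 24.2% and 19.3% at day 43, and 2331 and 1164 of all 17063 genes at day 70. The call of Cldn6 at day 43 on the standard diet rested on replicate 1, the library of lowest RIN, with counts of 50, 1 and 0. Cldn10 was among those higher at days 22 and 43 on both diets, at a level of at most 3.46 CPM in any sample.

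Many genes for proteins that claudins assemble with were lower at day 43, when the claudins had 3 called higher and 1 lower on the standard diet and 2 and 1 on the GW3965 diet. Of 27 tested genes for tight junction scaffolds, junctional adhesion molecules and their regulators, 17 were called lower and 0 higher at day 43 on the standard diet (median log2 fold change -0.76 against 0.14 for all tested genes), and 14 lower and 0 higher on the GW3965 diet (-0.85 against 0.07). Of all genes 24.2% and 19.3% were called lower. With the ribosomal term, 0 and 7 of all 17063 genes were called lower, so that at least the standard diet calls of the list were lost. The largest falls on the standard diet were those of Mylk (-2.24, FDR = 0.000751), a myosin kinase that is also abundant in smooth muscle, whose markers were lower too (5 of 6), Cgn, the scaffold cingulin (-1.96, edgeR FDR = 1.76e-05), the polarity protein Pard3 (-2.04, FDR = 2.40e-05) and Mpdz (-2.26, FDR = 0.000743), a multi-PDZ scaffold. On the GW3965 diet the largest included Cgn (-1.79, FDR = 8.99e-05) and Patj (-1.64, FDR = 0.000229). At day 22, 0 of 27 were called by edgeR on the standard diet and 5 (all lower) on the GW3965 diet, beside 1.99% and 7.05% of all genes called lower. By day 70, 4 were higher and 5 lower than at day 0 on the standard diet (median 0.12 against 0.04; 30.3% of all genes were called), with F11r (0.63, FDR = 0.0453), an adhesion molecule, among the higher. The falls were larger, with Mylk (-2.63, FDR = 0.000788), Jam3 (-2.15, FDR = 0.000149), Mpdz (-1.76, FDR = 0.00941) and Jam2 (-1.39, FDR = 0.00271), of which Jam2 and Jam3 are adhesion molecules too, and 6 of 6 smooth muscle markers were lower. Under GW3965, 1 was higher and 0 lower (median -0.10 against 0.11; 21.5% of all genes were called). From day 22 to day 70, 7 rose and 3 fell on the standard diet, and 5 rose and 0 fell on the GW3965 diet. Of all genes 15.1% rose and 16% fell on the standard diet, and 14.4% and 10.6% on the GW3965 diet.

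Genes of adherens junctions and desmosomes, the junctions beneath the claudin strands, were also called lower at day 43. At day 70 a few were called higher than at day 0, and more of them higher than at day 22. Of 14, 10 were lower and 0 higher at day 43 on the standard diet (median log2 fold change -1.29 against 0.14 for all tested genes), and 8 lower and 0 higher on the GW3965 diet (-1.01 against 0.07), beside the 24.2% and 19.3% of all genes called lower. The ribosomal term ended these calls on the standard diet as well, and on the GW3965 diet it left 7 lower genes in all. They included the desmosomal cadherin Dsg2 (-2.29, FDR = 4.98e-05) and the catenin Ctnnd1 (-2.34, FDR = 5.06e-06) on the standard diet, and Cdh1 (-1.37, FDR = 0.00444), which encodes E-cadherin, on the GW3965 diet (edgeR). At day 70, 3 were higher and 0 lower on the standard diet and 4 higher and 0 lower on the GW3965 diet, where 16.7% and 14.7% of all genes were called higher. Dsc2, a desmosomal cadherin, led both, at 1.72 (edgeR FDR = 0.00349) and 2.02 (FDR = 0.00155). Between days 22 and 70, 9 were called higher on the standard diet and 8 on the GW3965 diet, with 0 lower on either. The medians were 1.02 against -0.02 for all genes and 1.08 against 0.04, where 15.1% and 14.4% of all genes were called higher. A fit of only the compared groups called 0 of all genes in that comparison on the GW3965 diet. Desmosomal genes are also strongly expressed in squamous epithelium, whose markers were high at day 70, and the part of that tissue was not tested. At day 22, 0 were called by edgeR on the standard diet and 3 lower on the GW3965 diet, with the same shares of all genes as above (1.99% and 7.05% lower).

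Markers of other cell types were counted beside these values. Without the agonist, 5261 and 4133 of all 17063 genes were called higher and lower at day 43 and 2843 and 2331 at day 70. With the agonist these were 4432 and 3297, then 2513 and 1164, so 1 of 6 lower is no more than that background at day 43. Of 8 general epithelial genes (Krt8 the most abundant, none at 0), 5 were lower at day 43 on the standard diet and 2 on the GW3965 diet. Their summed CPM was 8059, 5221 and 9203 in the standard diet samples of day 43, against 14007, 8683, 11521 and 15035 at day 0, while Cldn4 and Cldn1 rose there. Of 6 leukocyte genes (Lyz2 the most abundant), 5 higher and 0 lower were called at day 43 on the standard diet and 6 higher and 0 lower on the GW3965 diet. Their sum on the standard diet was 3514, 10905 and 4655 CPM at day 43 and 291, 361, 589 and 314 at day 0. At day 22, 4 of these 6 were called higher on the standard diet and 6 on the GW3965 diet, with 0 lower. Of all genes, 1290 and 2331 were called higher then. At day 70, 1 leukocyte gene was higher and 1 lower on the standard diet, and 3 higher and 0 lower on the GW3965 diet. Of 6 goblet cell genes (Zg16), 0 higher and 1 lower were called at day 43 and 1 higher and 3 lower at day 70 on the standard diet, and 0 higher and 1 lower and 0 higher and 3 lower on the GW3965 diet. Of 8 stem cell and Wnt target genes (Smoc2), 4 higher and 0 lower were called at day 43 and 7 higher and 0 lower at day 70 on the standard diet, and 2 higher and 3 lower and 2 higher and 0 lower on the GW3965 diet. Their sum at day 43 on the standard diet was 866 CPM in replicate 1, the library of lowest RIN. It was 142 and 172 CPM in replicates 2 and 3, against 184, 167, 165 and 191 at day 0. Of 6 smooth muscle genes (Tagln), 0 higher and 5 lower and 0 higher and 6 lower were called on the standard diet, and 0 higher and 1 lower and 0 higher and 2 lower on the GW3965 diet. Of 6 skeletal muscle genes (Acta1), 6 higher and 0 lower were called at day 70 on the GW3965 diet and 3 higher and 0 lower on the standard diet. Small intestinal enterocyte markers, of which Ada was the most abundant, summed to at most 53.3 CPM over 6 genes. How far such shifts in tissue make-up carry the claudin values was not tested.

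Across the 26 samples, which share the same 8 groups and scaling factors, the genes outside the family with the most similar pattern to 8 members were listed by Spearman correlation of log2 CPM, as a description only. Cldn2 ran closest to Kcnq1 (0.966), Atad1 (0.930) and Ddc (0.928). Cldn15 ran closest to Cyp4f14 (0.884), Slc13a2 (0.852) and Fcgbp (0.852). For Cldn4 they were Tnfrsf12a (0.904), Cyp21a1 (0.903) and Tnfrsf11b (0.903), and for Cldn1 Krt17 (0.903), Aknad1 (0.902) and Rab38 (0.890), of which Krt17 is a keratin and ranged from 1.55 to 397 CPM. Kcnq1, a potassium channel subunit, ranged from 14.3 to 105 CPM. Cldn3 was most like Plpp2 (0.841), Prss32 (0.821) and Tmem45b (0.816). Cldn5 was nearest to Kank3 (0.889), Nbl1 (0.882) and Rab34 (0.879), Cldn8 to Bloc1s6 (0.710), Hoxd13 (0.701) and Ovol2 (0.700), and Cldn23 to Epcam (0.811), Tmbim1 (0.770) and Pgm2 (0.762). Of the members listed, Cldn8 had the lowest correlations.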

How the data were processed

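RNA from 26 mouse colon samples in 8 groups of diet and day was sequenced. The authors quantified reads with Kallisto on GRCm38 (per the submitters' processing notes, version not given in the sources used here) and deposited estimated counts and TPM per transcript, without further normalization. Of 119414 transcripts, 116728 were matched to genes of the GRCm38 annotation by identifier without version, and 0.615% to 0.999% of counts per sample fell on unmatched ones. Estimated counts were summed per gene and rounded. No samples held identical values.

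Genes were kept with filterByExpr over the 8 groups (17063 of 35975) and scaled by TMM. edgeR 4.0.16 (limma 3.58.1, R 4.3.3) quasi-likelihood tests were fitted to all 26 samples in 1 model of the 8 groups, with Benjamini-Hochberg adjustment and a threshold of 0.05. Diet comparisons, their differences between days and the joint test carried the share of each library on 88 ribosomal protein genes as an additive covariate, in place of the ribosomal RNA term of the authors' model. The day comparisons carried no such term in the reported fit, although the authors' model crossed the ribosomal RNA percentage with time too. P-values measure the spread between these samples. log2 CPM used a prior count of 2. Members, the other Cldn genes, 2 junction lists and 11 marker lists (epithelium, differentiated colonocyte, goblet, stem and Wnt, endothelium, stratified squamous, gastric and lung, smooth muscle, skeletal muscle, leukocyte, small intestinal enterocyte) were chosen with earlier results of these data known. Named singly were all members, some genes called of a list (from up to 4 of the largest change per direction), the most abundant marker and the 3 genes most like each of 8 members. Alternatives were DESeq2 1.42.0, RLE factors, library totals, no filter, the ribosomal or RIN term added or left out, a replicate block, only the compared groups, each sample left out, the study's model with all interactions for the joint test, TPM for shares, and both libraries that stood apart left out. The edgeR procedure was also run on simulated counts with planted changes. These held no cage, RNA quality or tissue differences, so that run does not bear on such differences. Promoters come from RefSeq (GRCm38.p6). Tables were made with Python 3.11.15, pandas 2.3.3 and numpy 2.4.6, figures with matplotlib 3.10.9.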

Additional observations from a re-analysis of the deposited data

Results flagged for a closer look

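2 of 22 values checked in the groups of 4 samples had 1 sample far from the others, where chance alone gives about 1 in 20. Cldn4 in the standard diet day 0 samples had a lowest value of 21.01 CPM (replicate 2 collected on day 22), with the nearest sample at 42.7 CPM, a gap of 0.886 of the range. Cldn7 in the GW3965 day 0 samples had a highest value of 732 CPM (replicate 1 collected on day 22), with the nearest at 538 CPM, a gap of 0.854 of the range.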

How the results depend on the processing

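Of 20 calls of a member in a comparison, 5 held under every alternative run, 8 were lost when some 1 library was left out, and none reversed. Numbers of members called changed as follows, and the cause was not tested. With the ribosomal share added, 0 were called at day 43 on the standard diet, 0 at day 43 on the GW3965 diet and 0 between days 22 and 70 on the GW3965 diet. With only the compared groups in the fit, 3 were called at day 70 (Cldn1, Cldn15 and Cldn4) and 5 between days 22 and 70 (Cldn1 and Cldn15 added) on the standard diet, 1 at day 70 and 0 between days 22 and 70 on the GW3965 diet, and 0 between diets at day 70. DESeq2 called 5 at day 70 on the GW3965 diet (Cldn3 and Cldn15 added), 1 for the diet effect at day 70 minus that at day 0, and 1 in the joint test. Without the low-count filter 2 were called at day 70 on the standard diet (Cldn4 and Cldn18). Without both libraries that stood apart, a choice made after seeing the data, 2 were called at day 70 on the standard diet (Cldn2 and Cldn4) and 1 in the joint test. The replicate block left 2 of 4 at day 43 on the standard diet (Cldn2 and Cldn4) and moved no other count by over 1.5 times. Same-numbered samples of different groups had a mean correlation of -0.00709, so they share only a number. Leaving out each library, the range on the standard diet was 0 to 1 at day 22, 2 to 5 at day 43, 1 throughout at day 70 and 2 to 3 between days 22 and 70. On the GW3965 diet it was 1 throughout, 3 to 4, 2 to 6 and 1 to 5. Between diets it was 0 to 2 at day 70, 0 to 1 for the diet effect at day 70 minus that at day 0, and 0 in the other diet comparisons and the joint test. All genes called, with the range over alternatives, were 1630 (641 to 2818), 9394 (0 to 9791), 5174 (3827 to 6839) and 5306 (3309 to 7174) on the standard diet in the same order, and 3534 (1656 to 7071), 7729 (160 to 9335), 3677 (2714 to 4689) and 4267 (0 to 5474) on the GW3965 diet. Between diets they were 5 (5 to 30), 23 (5 to 305), 5 (0 to 285) and 312 (0 to 1464) at days 0, 22, 43 and 70, 4 (0 to 102), 0 (0 to 12) and 0 (0 to 418) for the differences from day 0, and 30 (16 to 868) in the joint test. With library totals in place of TMM, higher against lower calls went from 5261 and 4133 to 3469 and 5992 at day 43 on the standard diet, from 4432 and 3297 to 2968 and 4990 on the GW3965 diet, from 2331 and 1203 to 1725 and 1677 at day 22 on the GW3965 diet, and from 15 and 8 to 10 and 9 between diets at day 22. The median log2 fold change of all genes went from 0.14 to -0.27, from 0.07 to -0.25 and from 0.03 to -0.11 in the first 3 of these, and from 0.04 to 0.15 between days 22 and 70 on the GW3965 diet. With TPM, 62 of 88 group shares moved by more than 1 SD. Groups of 3 or 4 limit all tests, and Cldn18 is near the floor of detection.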
